A study of Mus musculus with 8 samples.

Results

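Prcc, Adamtsl4 and Scrn1 are 3 of the 14166 genes in the count tables of nuclei from wildtype and Pantr2 knockout mouse embryos. They were chosen by their genotype change in each cell cluster, which had passed the test in every cluster in earlier results from these tables, and were then taken by gene symbol. Their genotype changes are therefore given as a description and support nothing by themselves. What the choice did not fix is how large each change is in each cell type, how it lies over single samples and nuclei, and what stands beside the genes on their chromosomes.

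The nuclei came from the dorsal telencephalon, the precursor of the cerebral cortex, at E15.5 (days of embryonic development), when progenitors along the ventricle still produce neurons. All samples are labelled C57BL/6J. There were 4 wildtype and 4 Pantr2 knockout samples, the latter from Pantr2-/- mice (Pantr2 is a long noncoding RNA gene). The labels name no driver, treatment or second allele, and do not say how the allele was made, how many embryos a sample holds or whether samples come from separate litters, so a p-value measures only the spread between these samples. The counts of Pantr2 were not analysed here, and the genotype of a sample rests on its label.

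Prcc encodes a nuclear proline-rich protein that binds the mitotic checkpoint protein encoded by Mad2l2, associates with the splicing machinery, and is known as a fusion partner of the transcription factor gene Tfe3 in papillary renal cell carcinoma. Adamtsl4 encodes a secreted glycoprotein of the ADAMTS-like family, which shares the ancillary domains of ADAMTS proteases but has no catalytic domain, and which binds fibrillin microfibrils and is best known from the suspension of the eye lens. Scrn1 encodes secernin-1, a cytosolic protein first described as a regulator of exocytosis in mast cells and later placed at endoplasmic reticulum contacts in neurons.

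On the GRCm38 build with GENCODE M21, found by gene ID, Prcc (ENSMUSG00000004895) spans bases 87858903 to 87885608 of chromosome 3 on the minus strand and has 1 transcript. Adamtsl4 (ENSMUSG00000015850) spans 95676201 to 95687917 of chromosome 3 on the minus strand, with 5 transcripts of which 3 are coding. Scrn1 (ENSMUSG00000019124) spans 54501173 to 54566489 of chromosome 6 on the minus strand, with 6 transcripts of which 4 are coding. Since all 3 genes differed between genotypes in clusters of every kind, their proximal promoters are shown from RefSeq (GRCm38.p6), 5′ to 3′ on the minus strand and only as far as no annotated transcript has begun. Capitals mark the GC box GGGCGG, searched on both strands.
Prcc promoter, chr3:87885609-87885812: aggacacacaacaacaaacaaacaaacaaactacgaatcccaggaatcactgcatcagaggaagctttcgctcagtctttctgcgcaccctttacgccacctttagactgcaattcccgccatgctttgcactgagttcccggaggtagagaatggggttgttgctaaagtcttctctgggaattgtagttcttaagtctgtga
Adamtsl4 promoter, chr3:95687928-95688167: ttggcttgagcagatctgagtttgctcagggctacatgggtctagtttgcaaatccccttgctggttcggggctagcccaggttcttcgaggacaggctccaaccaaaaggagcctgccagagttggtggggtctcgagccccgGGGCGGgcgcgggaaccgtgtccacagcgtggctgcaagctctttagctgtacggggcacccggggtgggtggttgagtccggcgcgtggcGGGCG
Scrn1 promoter, chr6:54566518-54566632: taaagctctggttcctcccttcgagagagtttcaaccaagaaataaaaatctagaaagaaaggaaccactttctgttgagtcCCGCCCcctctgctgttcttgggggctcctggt

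Over the 250 bases before the RefSeq start, the Adamtsl4 promoter held 2 GC boxes, 106 and 15 bases before the start, the second of which runs past the end of the stretch shown. The Scrn1 promoter also held 2, at 168 and 117 bases, of which the second lies beyond the stretch shown, and the Prcc promoter held 0. A GC box occurred in 32.7% of 32851 mouse promoter windows of that length. None of the 3 windows held the TATA box letters TATAAA (12.4% of windows), the CCAAT box CCAAT (33.8%), the E-box CACGTG (6.02%) or the octamer ATGCAAAT (1.60%) on either strand. The windows of Prcc, Adamtsl4 and Scrn1 held 9, 17 and 11 CG dinucleotides, against a median of 6. These matches describe letters only, and the 3 promoters shared none of the 5 motifs among them all.

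The tables held 67319 nuclei, 7280 to 10921 per sample, with 20446698 to 34083796 unique molecular identifiers (UMIs, 1 per captured transcript molecule) per sample and medians of 2570 to 2905 per nucleus. Mitochondrial genes took 1.66% to 2.32% of UMIs, and any pair of samples shared 8 to 30 cell barcodes. Xist was found in 5 samples and was at 0 UMIs in wildtype replicate 4 and knockout replicates 1 and 4. Of the 7 deposited clusters, by markers at their highest level there, cluster 1 was upper-layer neuron-like (Cux1 and Cux2 among others), cluster 2 subcerebral or deep-layer neuron-like (Bcl11b and Fezf2 among 4) and cluster 3 corticothalamic or deep-layer neuron-like (Tle4 and Tbr1 among 4). Cluster 4 was apical progenitor-like (Pax6 and Hes5 among 9) and cluster 5 intermediate progenitor-like (Eomes and Neurog2 among 5). Single markers of other classes were also highest in these 2 clusters, so they need not be pure. In cluster 4 these were Pdgfrb (endothelial and mural, 18.1 times the other clusters' median), Dcn (meningeal fibroblast, 8.10 times) and Gad2 (interneuron, 2.43 times). In cluster 5 it was Reln (Cajal-Retzius, 2.80 times). Clusters 6 and 7 had too few markers for a name, and all names are rebuilt and can differ from the study's. Levels are given as CPM, the UMIs of a gene scaled to a common total for every library, or for every sample within a cluster. Summed marker levels over all nuclei separated the genotypes for 5 of 12 cell classes, of which 4 are given here. Among single genes tested over all nuclei, the samples did not overlap for 11.3%. Such a sum can rest mainly on a single gene and does not count the cells of a class. Subcerebral markers gave 3534 to 4100 CPM in wildtype against 4447 to 5121 CPM in knockout samples. Oligodendrocyte precursor markers gave 4.38 to 6.91 against 1.43 to 1.94, endothelial and mural markers 15.6 to 16.5 against 12.4 to 13.7, and microglial markers 3.25 to 4.58 against 2.18 to 3.05 CPM. No marker of these lists was at 0, and their part in the results over all nuclei was not tested.

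**Figure D1:**
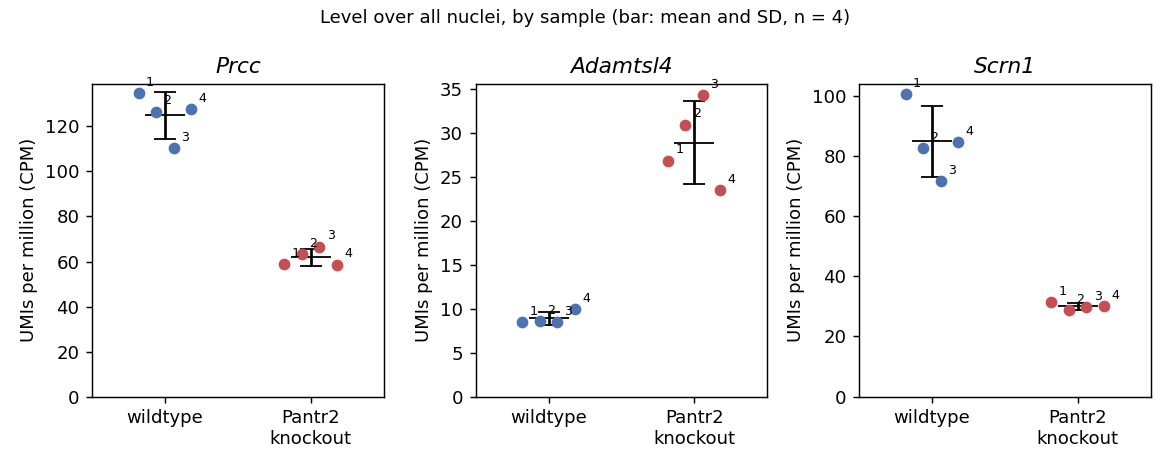
Level of Prcc, Adamtsl4 and Scrn1 over all nuclei of each sample, in CPM (linear axes from 0). Points are samples numbered by replicate, and bars are the mean and SD of 4 samples. The 2 genotypes do not overlap for any of the 3 genes, and the Scrn1 level varies more among wildtype (71.7 to 100.4) than among knockout samples (28.8 to 31.5).

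Prcc was lower in knockout samples. Over all nuclei, wildtype replicates 1 to 4 gave 135, 127, 110.5 and 128 CPM of Prcc, and knockout replicates 1 to 4 gave 59.0, 63.2, 66.6 and 58.6 CPM. The lowest wildtype sample, replicate 3, lay 43.8 CPM above the highest knockout sample. The knockout mean was 61.9 ± 3.80 CPM against 125 ± 10.3 (SD, n = 4 each), or 49.5% of wildtype, from 6157 and 12515 UMIs. The log2 fold change was -0.997 ± 0.07 (SE) in edgeR's quasi-likelihood fit. In sums over all nuclei of a sample, fewer cells of a type and less RNA per cell cannot be told apart.

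Adamtsl4 was higher in knockout samples. Wildtype replicates 1 to 4 gave 8.52, 8.62, 8.52 and 9.96 CPM of Adamtsl4, and knockout replicates 1 to 4 gave 26.9, 31.0, 34.3 and 23.5 CPM. Every knockout sample lay at least 13.6 CPM above every wildtype sample. The means were 28.9 ± 4.72 and 8.90 ± 0.707 CPM (SD, n = 4), a ratio of 3.25, from 2910 and 896 UMIs, and the log2 fold change was 1.71 ± 0.12 (SE).

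Scrn1 was lower in knockout samples. Wildtype replicates 1 to 4 gave 100.4, 82.7, 71.7 and 84.5 CPM of Scrn1, and knockout replicates 1 to 4 gave 31.5, 28.8, 29.8 and 30.1 CPM. The groups lay 40.2 CPM apart at their nearest samples, and the 4 knockout samples were close together. The means were 30.1 ± 1.12 and 84.8 ± 11.8 CPM (SD, n = 4), so that the knockout level was 35.4% of wildtype, from 2957 and 8485 UMIs, and the log2 fold change was -1.48 ± 0.08 (SE). All 3 genes had an adjusted p under 0.05, the threshold behind the word called, as did 5.26% of the 13926 genes tested. The samples of the 2 groups did not overlap for 11.3% of them. Because the genes were chosen for this contrast, nothing is read from these shares.

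**Figure D2:**
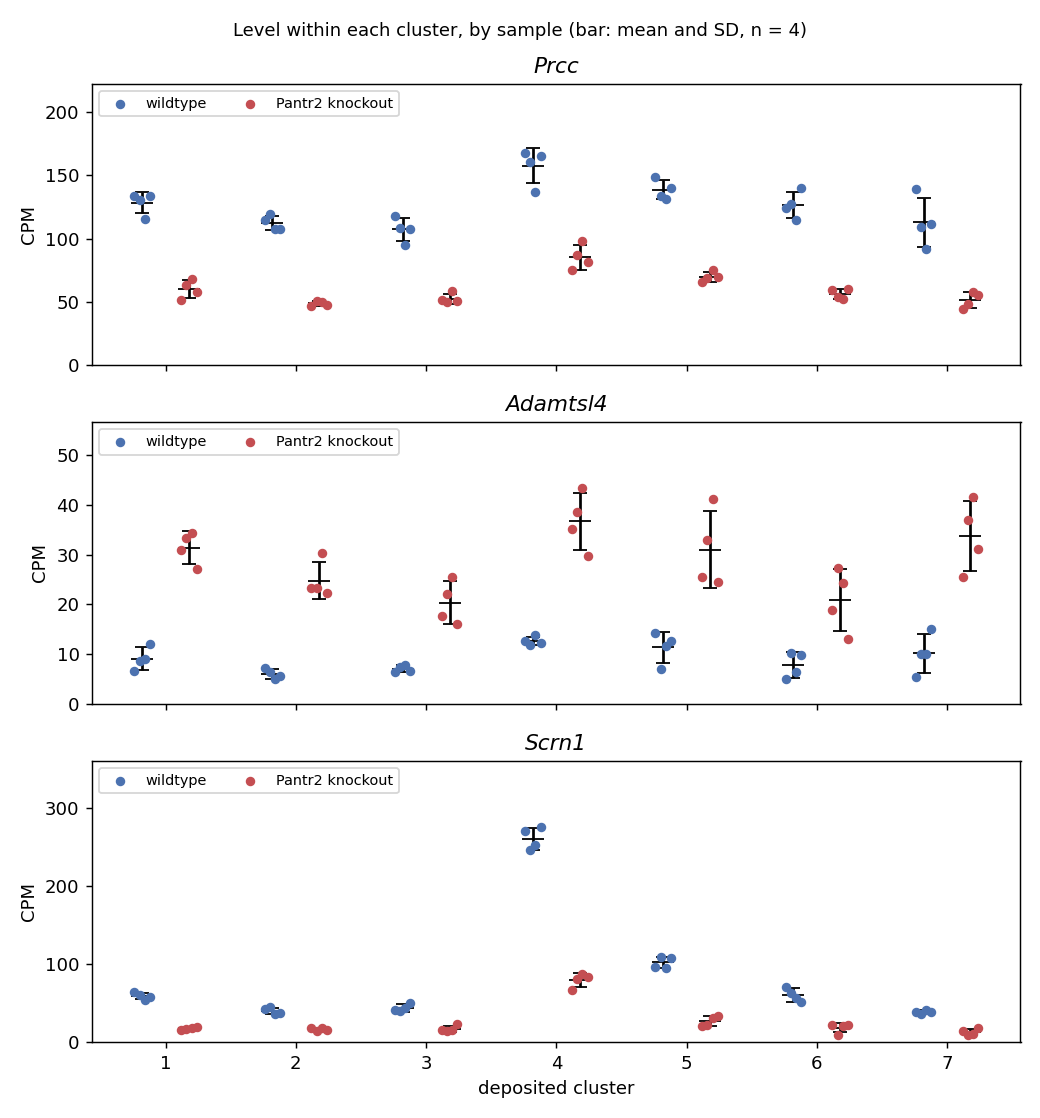
Level of each gene within each of the 7 deposited clusters, in CPM of that cluster (linear axes from 0). Points are samples and bars the mean and SD of 4 samples. Wildtype and knockout samples stand apart in all 7 clusters for each gene, and Scrn1 is highest in cluster 4 in both genotypes.

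Within clusters, the drop of Prcc appeared in progenitors, in neurons and in the unnamed clusters. In apical progenitor-like cluster 4, wildtype replicates 1 to 4 gave 167, 161, 137 and 166 CPM of Prcc and knockout replicates gave 74.9, 87.0, 98.1 and 81.3 CPM. In intermediate progenitor-like cluster 5, the Prcc values were 148, 134, 132 and 140.2 CPM in wildtype and 65.7, 69.0, 74.9 and 70.0 CPM in knockout samples. The wildtype sample nearest to the knockouts was replicate 3 in both progenitor clusters. Prcc in upper-layer neuron-like cluster 1 was at 134, 131, 116 and 134 CPM in wildtype and 51.8, 63.5, 68.5 and 57.9 CPM in knockout samples. In cluster 2 it was at 115, 119, 108 and 108 CPM against 46.5, 50.8, 49.9 and 47.9 CPM. In cluster 3 it was at 118, 109, 95.2 and 108 CPM against 51.3, 49.8, 58.6 and 50.7 CPM. No knockout sample reached any wildtype sample in these 3 neuronal clusters. In cluster 6, Prcc was at 124, 128, 114 and 140.1 CPM in wildtype against 59.2, 53.7, 52.2 and 60.5 CPM in knockout samples, and in cluster 7 at 139, 109.5, 92.0 and 112 CPM against 44.5, 48.5, 58.0 and 55.6 CPM. Both unnamed clusters thus separated the genotypes as the named ones did.

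Adamtsl4 rose to between 2.67 and 4.09 times its wildtype mean, depending on the cluster. In cluster 4, wildtype replicates 1 to 4 gave 12.6, 11.8, 13.9 and 12.2 CPM of Adamtsl4 and knockout replicates gave 35.1, 38.7, 43.4 and 29.7 CPM. In cluster 5 the values were 14.2, 6.95, 11.7 and 12.6 CPM against 25.5, 33.0, 41.2 and 24.5 CPM. Knockout replicate 3 was the highest sample in both progenitor clusters. In cluster 1, Adamtsl4 was at 6.52, 8.62, 9.01 and 12.05 CPM in wildtype against 30.9, 33.4, 34.4 and 27.0 CPM in knockout samples. In cluster 2 it was at 7.24, 6.39, 5.02 and 5.53 CPM against 23.2, 23.2, 30.3 and 22.2 CPM, and in cluster 3 at 6.33, 7.49, 7.87 and 6.54 CPM against 17.8, 22.2, 25.5 and 16.0 CPM. The ratio of means was the largest of the 7 in cluster 2, at 4.09. In cluster 6, Adamtsl4 was at 4.89, 10.2, 6.44 and 9.75 CPM against 18.9, 27.3, 24.3 and 13.0 CPM, and in cluster 7 at 5.48, 9.96, 10.1 and 15.1 CPM against 25.4, 37.0, 41.7 and 31.2 CPM. The groups came nearest in cluster 6, by 2.73 CPM, where 1 knockout sample held 12 UMIs of the gene. The lowest count of the gene in any sample and cluster was 8 UMIs, in cluster 7, so single values of Adamtsl4 are the least precise.

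Scrn1 differed most between cell types. In cluster 4, wildtype replicates 1 to 4 gave 270.1, 246, 252 and 275 CPM of Scrn1, and knockout replicates gave 67.0, 81.2, 87.1 and 83.6 CPM. In cluster 5 the values were 97.0, 109.9, 95.5 and 107 CPM against 21.2, 21.9, 31.3 and 33.2 CPM. The Scrn1 level of apical progenitor-like nuclei in the knockout thus lay below that of wildtype intermediate progenitor-like nuclei. In cluster 1, Scrn1 was at 63.8, 60.8, 54.5 and 57.8 CPM in wildtype against 15.3, 17.1, 18.6 and 19.6 CPM in knockout samples. In cluster 2 it was at 43.0, 44.7, 36.1 and 36.9 CPM against 17.7, 13.9, 18.3 and 15.48 CPM, and in cluster 3 at 41.6, 39.5, 43.7 and 50.6 CPM against 15.2, 14.0, 16.3 and 23.1 CPM. The groups lay 16.4 to 34.9 CPM apart in the neuronal clusters. In cluster 6 the Scrn1 values were 71.4, 62.6, 56.2 and 51.3 CPM against 22.5, 9.58, 20.7 and 22.7 CPM, and in cluster 7 they were 39.0, 36.8, 41.8 and 38.9 CPM against 13.9, 9.87, 11.2 and 17.7 CPM. Knockout replicate 2 was the lowest sample in both.

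The order of the clusters by level was only partly resolved. Wildtype means of Prcc ran from cluster 4 (158 ± 14.0 CPM) through clusters 5, 1, 6, 7 and 2 to cluster 3 (107 ± 9.30), a range of 1.47-fold, and the sample ranges of every pair of neighbours in this order overlapped. For Adamtsl4 the order was 4, 5, 7, 1, 6, 3 and 2, from 12.6 ± 0.903 to 6.04 ± 0.975 CPM, again with overlap at every step. For Scrn1 the order was 4, 5, 6, 1, 3, 2 and 7, from 261 ± 14.1 to 39.1 ± 2.03 CPM, a range of 6.67-fold. Clusters 4 and 5, clusters 5 and 6, and clusters 1 and 3 did not overlap in this series, and the other neighbours did. In knockout samples Scrn1 kept a range of 6.06-fold, from 79.7 ± 8.82 CPM in cluster 4 to 13.2 ± 3.48 in cluster 7 (SD, n = 4), and of the neighbours in its order clusters 4 and 5 alone did not overlap. Cluster 4 held the highest mean of all 3 genes in both genotypes.

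**Figure D3:**
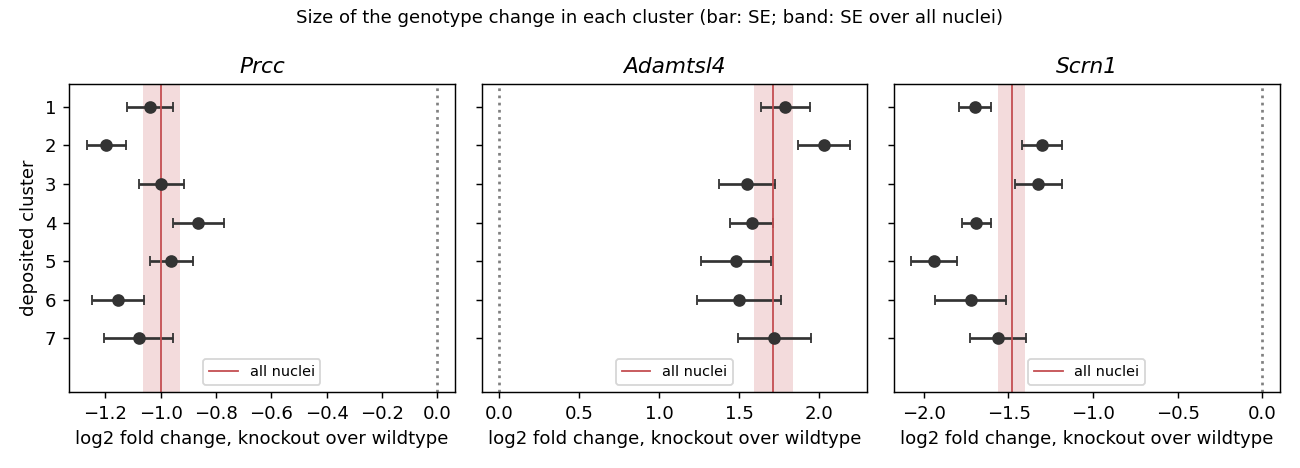
Log2 fold change of each gene, knockout over wildtype, in each of the 7 clusters (points, with bars of 1 SE) beside the change over all nuclei (red line, with a band of 1 SE). The dotted line is no change. Prcc lies between -1.20 and -0.86, Adamtsl4 between 1.48 and 2.03 and Scrn1 between -1.94 and -1.30.

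The size of the change varied little over cell types beside its own size. The log2 fold change of Prcc in clusters 1 to 7 was -1.04, -1.20, -0.998, -0.86, -0.96, -1.15 and -1.08, with SEs of 0.07 to 0.12. That of Adamtsl4 was 1.79, 2.03, 1.55, 1.58, 1.48, 1.501 and 1.72, with SEs of 0.13 to 0.26, and that of Scrn1 was -1.70, -1.30, -1.32, -1.69, -1.94, -1.72 and -1.56, with SEs of 0.09 to 0.21. The SD over the 7 clusters was 0.11 for Prcc, 0.20 for Adamtsl4 and 0.23 for Scrn1, against median SEs of 0.08, 0.18 and 0.14. In same-numbered samples, 28 of 28 ratios per gene (4 pairs in 7 clusters) had the same direction, with log2 ratios of -1.64 to -0.48 for Prcc, 0.41 to 2.59 for Adamtsl4 and -2.71 to -0.98 for Scrn1. The count of directions was fixed for any pairing, since the groups of each gene did not overlap in any of the 7 clusters. Each gene was called in 7 of 7 clusters. The share of all tested genes called was 4.84%, 9.11%, 3.36%, 4.29%, 1.77%, 0.779% and 1.03% for clusters 1 to 7 in order. The samples did not overlap for 10.3%, 14.1%, 8.86%, 9.76%, 6.17%, 5.92% and 5.92% of genes in the same order. Nothing is read from these counts, since they chose the genes. The call of Adamtsl4 in cluster 6 (adjusted p = 0.0158 by edgeR) was lost without wildtype replicate 3 (0.0563), without knockout replicate 2 (0.112) and without knockout replicate 3 (0.0738).

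Whether the size was the same in every cell type was asked with the genotype by cluster terms of 1 edgeR fit over all sample and cluster sums. Of 12933 genes tested there, 9.12% had an adjusted p under 0.05. Adamtsl4 was not among them (adjusted p = 0.558), nor was Scrn1 (0.120), and Prcc lay at the threshold (0.0498). The Prcc call was lost with the replicate number as a block (0.133), with DESeq2 size factors (0.0772) and without a filter on low counts (0.0739). It was also lost in each of the 8 fits that left out 1 sample, which gave adjusted p-values of 0.0575 to 0.333. Of the alternatives, only Xist as a covariate kept it (0.0306). Set against the mean of the other 6 clusters, the fall of Prcc was smaller in apical progenitor-like cluster 4, by 0.22 ± 0.06 on the log2 scale (SE; adjusted p = 0.0264 by edgeR, in a contrast that called 4.86% of genes). In all 4 same-numbered pairs, taken from the same sums, the ratio in cluster 4 lay above the mean of the other clusters, by 0.09 to 0.38. That contrast had an adjusted p of 0.0592 with the replicate block and was under 0.05 in 5 of 12 alternatives, with adjusted p-values of 0.0170 to 0.150 over them.

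No other cluster passed the threshold for any of the 3 genes, in contrasts that called 0.564%, 5.02%, 0.936%, 4.86%, 0.255%, 0.232% and 0.278% of genes for clusters 1 to 7. Scrn1 fell less in cluster 2, by 0.35 ± 0.14 (SE; adjusted p = 0.176 by edgeR), and in cluster 3, by 0.29 ± 0.14 (0.471), than in the mean of the other clusters, and more in intermediate progenitor-like cluster 5, with a difference of -0.37 ± 0.14 (0.387). All 4 same-numbered pairs showed these directions for Scrn1 in clusters 2, 3 and 5. Pair counts come from the same sums as the fit, and the pairing is uncertain, so they describe the values and add no support. The difference in cluster 2 passed the threshold without knockout replicate 4 (adjusted p = 0.0496) and in no other alternative. Adamtsl4 rose more in cluster 2, by 0.42 ± 0.18 (adjusted p = 0.221; 3 of 4 pairs). Prcc fell more in the same cluster, with a difference of -0.18 ± 0.07 (0.143; 4 of 4 pairs). A p that misses the threshold does not show that the clusters changed alike.

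The change over all nuclei can also move with the mix of cell types. Cluster 6 took 10.5 ± 1.54% of nuclei in wildtype and 5.85 ± 1.61% in knockout samples, and cluster 4 took 14.1 ± 4.42% and 18.4 ± 5.50% (SD, n = 4). With each cluster's share of UMIs, not of nuclei, fixed at its wildtype mean, the log2 ratio of Prcc was -1.06 against -1.01 with each sample's own shares. That of Adamtsl4 was 1.66 against 1.70. For Scrn1 it was -1.65 against -1.50, and with equal weight for each cluster -1.68. At fixed shares the wildtype SD of Scrn1 fell from 11.8 to 3.08 CPM, while its knockout SD rose from 1.12 to 3.11 CPM. The closer knockout values over all nuclei were thus not kept at fixed shares. The wildtype mean of Scrn1 was 84.6 in place of 84.8 CPM, and the knockout mean 27.0 in place of 30.1 CPM. Wildtype replicate 1, the highest in Scrn1 over all nuclei, also had the largest share of cluster 4 among wildtype samples, at 20.2% of its nuclei.

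The share of nuclei with a UMI of each gene differed in the same direction as its level. With nuclei downsampled to 1400 UMIs each, Prcc was found in 15.9 ± 1.29% of wildtype and 8.05 ± 0.459% of knockout nuclei (SD over samples, n = 4), against 29.4% and 16.0% without thinning. Adamtsl4 was found in 1.19 ± 0.171% and 4.05 ± 0.589% of thinned nuclei, against 2.55% and 7.88% without thinning. Scrn1 was found in 10.6 ± 1.44% and 4.00 ± 0.123%, against 19.0% and 7.80%. The groups did not overlap for any of these shares. No cluster is known to lack these genes, so the share that free RNA in the droplets gives was not measured. Most nuclei with the gene held a single UMI, so that a change in level shows mainly in this share, and a change in the number of expressing nuclei cannot be told apart from one in the RNA per nucleus. Among nuclei with at least 1 UMI of the gene, the mean UMI number in knockout was 0.902 times the wildtype value for Prcc, 1.04 times for Adamtsl4 and 0.855 times for Scrn1. Scrn1 in cluster 4 had the largest shift of this kind, from 1.62 ± 0.043 to 1.21 ± 0.045 UMIs per positive nucleus (SD, n = 4), while its share of thinned nuclei there went from 29.9 ± 1.44% to 11.0 ± 1.18%.

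**Figure D4:**
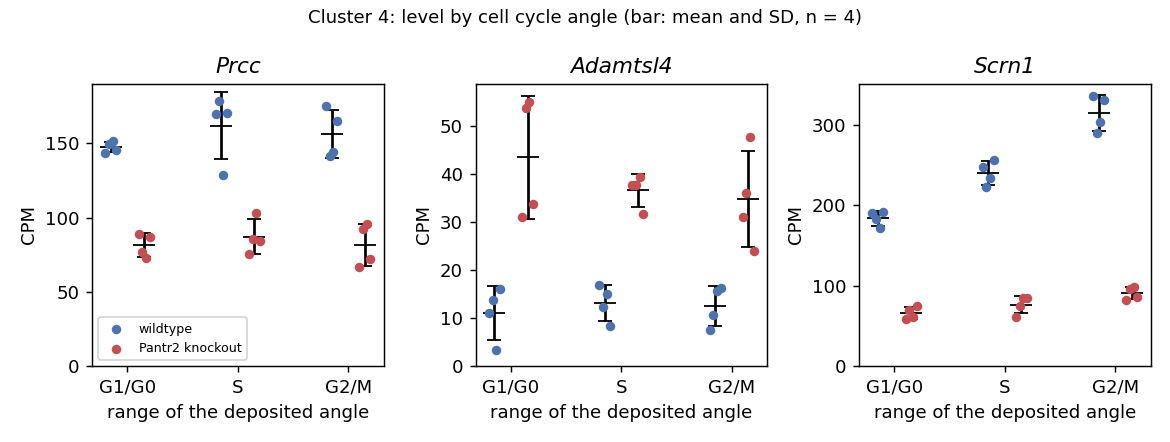
Level of each gene in 3 ranges of the deposited cell cycle angle within apical progenitor-like cluster 4, in CPM (linear axes from 0). Points are samples and bars the mean and SD of 4 samples. Scrn1 climbs from G1/G0 to G2/M in both genotypes, and the genotypes stand apart in every range.

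Cluster 4 holds cycling cells, and the deposited angle divides its nuclei into ranges for G1/G0, S and G2/M. Wildtype Scrn1 was at 184 ± 9.30, 241 ± 14.97 and 315 ± 22.2 CPM in these ranges and knockout Scrn1 at 66.0 ± 7.82, 76.7 ± 11.1 and 90.7 ± 7.51 CPM (SD, n = 4). The sample ranges of the 3 wildtype phases did not overlap, and the log2 ratios were -1.48, -1.65 and -1.80. Prcc was at 148 ± 3.602, 162 ± 22.4 and 156 ± 16.3 CPM in wildtype against 81.4 ± 8.06, 87.3 ± 11.5 and 81.6 ± 14.4 CPM in knockout samples, with log2 ratios of -0.86, -0.89 and -0.94. Adamtsl4 was at 11.1 ± 5.60, 13.2 ± 3.68 and 12.6 ± 4.19 CPM against 43.5 ± 12.7, 36.6 ± 3.41 and 34.8 ± 10.0 CPM. Its log2 ratios were 1.97, 1.47 and 1.47, the first resting on as little as 1 UMI in a sample. Neither Prcc nor Adamtsl4 had phases whose sample ranges stood apart in wildtype, and the differences between phases were not tested.

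Prcc and Adamtsl4 lie on the same chromosome, 7.82 Mb apart, and moved in opposite directions. Of the 130 tested genes between them, 16 were called over all nuclei (12.3%), 6 higher and 10 lower, beside 5.26% of all genes. Within 5 Mb of Prcc 13 of 105 tested genes were called (12.4%), within 5 Mb of Adamtsl4 15 of 94 (16.0%), and within 5 Mb of Scrn1 10 of 45 (22.2%). The first 2 windows overlap but have no tested gene in common. Called genes of both directions stood in each window. The 3 genes were among 23 called in all 7 clusters, 12 of them higher and 11 lower. Of these 23, the members included, 9 lay on chromosome 3, which holds 5.06% of the genes tested. Chromosome 14 (3.50%) held 5 and chromosome 15 (4.06%) held 4. The rest were 2 on chromosome 1 (6.05%), 1 on chromosome 4 (6.28%), Scrn1 alone on chromosome 6 (4.77%) and 1 mitochondrial gene (0.136%). Gm3764 was the only other gene of the 23 within 5 Mb of Prcc, S100a10 and Celf3 were those within 5 Mb of Adamtsl4, and there was none near Scrn1. These 3 were named after their values were seen. Of the 23, 9 were also called by the genotype by cluster test.

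**Figure D5:**
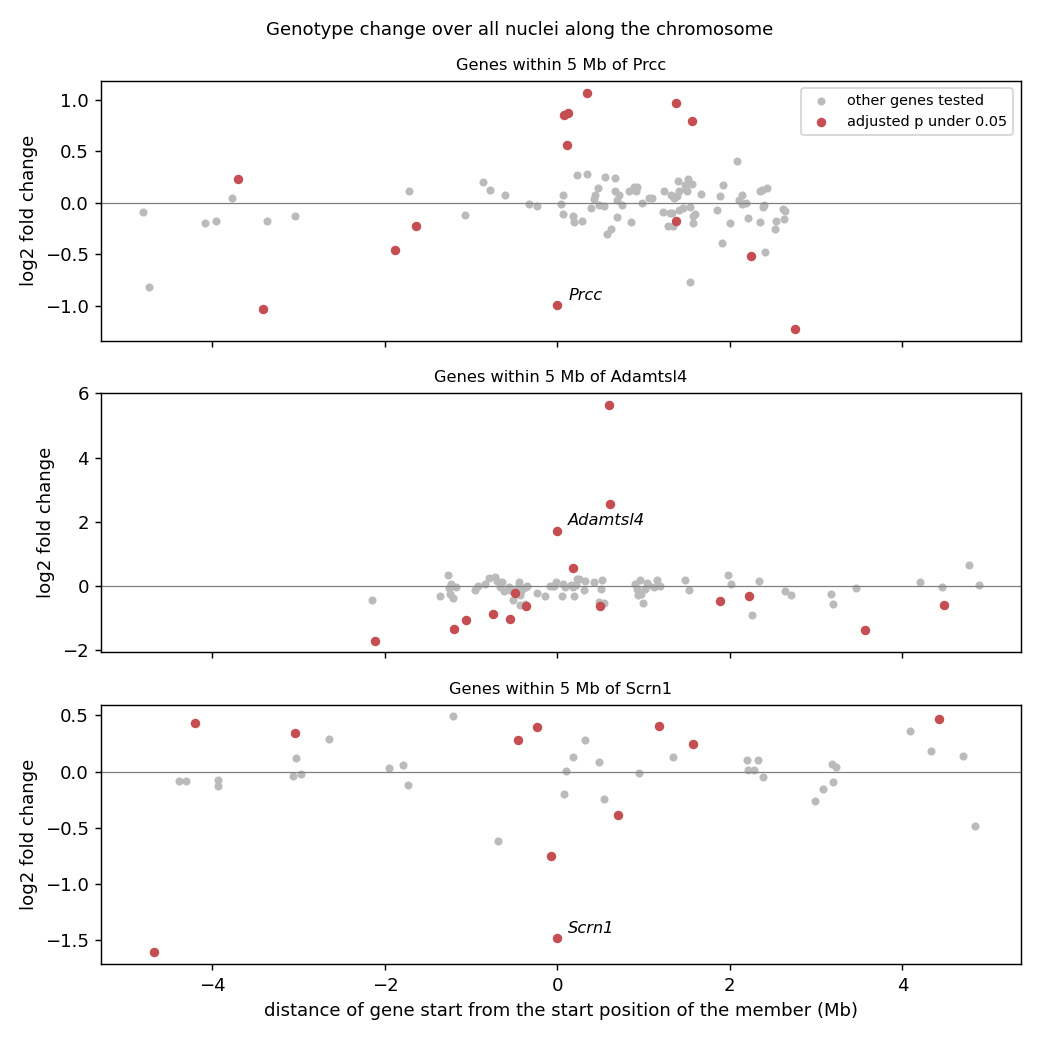
Log2 fold change over all nuclei of every tested gene within 5 Mb of each member, against the distance of its start from the member's start in the deposited gene table (Mb). Red points had an adjusted p under 0.05 and grey points did not. Prcc, Adamtsl4 and Scrn1 stand at distance 0, with called genes of both directions around them.

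Of the 20 tested genes nearest to Prcc, 10 on each side, 5 were called (25%), beside 5.26% of all genes tested. Isg20l2, an exonuclease gene 71.4 kb away, went from 12.3 ± 1.93 to 21.9 ± 1.42 CPM (log2 fold change 0.85 ± 0.10 SE, adjusted p = 0.00123 by edgeR) and was called higher in 5 clusters. Nes, the nestin gene of neural progenitors, was higher by 0.56 ± 0.06 (0.000646), and the proteoglycan gene Bcan by 0.87 ± 0.21 (0.0427). Sh3d19 was lower, at -0.46 ± 0.08 (0.0132), and so was Lrba, at -0.22 ± 0.05 (0.0329). The groups did not overlap for these genes except for Bcan, for which 4 of 4 knockout samples lay above the wildtype mean. Here and below, groups without overlap are no separate evidence for a gene already called, and 11.3% of all genes tested had such groups. The direct neighbours of Prcc, Arhgef11 at -0.03 and Hdgf at -0.01, were not called.

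Around Adamtsl4, 2 of the 20 nearest genes were called (10%, beside 5.26% of all genes tested). These were 6330562C20Rik at -0.63 ± 0.15 (adjusted p = 0.0352 by edgeR) and Gm26594 at 0.54 ± 0.11 (0.0224). Both lay below 5 CPM, without overlap of the groups. The genes on either side, the apoptosis regulator Mcl1 at a log2 fold change of 0.11 and the extracellular matrix gene Ecm1 at -0.32, were not called. Around Scrn1, 5 of 20 were called (25%). Chn2 was higher by 0.28 ± 0.05 (0.0132) and 9130019P16Rik by 0.40 ± 0.10 (0.0414). Neurod6, a transcription factor gene of cortical neurons, was higher by 0.41 ± 0.08 (0.0216) and was called higher in 6 clusters. Mindy4 was lower, at -0.39 ± 0.07 (0.0149). The groups did not overlap for any of these 4 genes. Of the called neighbours, Isg20l2, Nes, Chn2 and Wipf3 kept an adjusted p under 0.05 in 13 of 13 alternatives, and the other 8 lost it in 1 to 9.

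Wipf3, the fifth, overlaps Scrn1 by 2596 bases on the opposite strand, and it was lower as well. It gave 27.7, 24.5, 28.3 and 28.0 CPM in wildtype replicates 1 to 4 and 15.3, 14.6, 16.1 and 18.05 CPM in knockout replicates 1 to 4. The log2 fold change of Wipf3 was -0.75 ± 0.09 (SE, adjusted p = 0.00151 by edgeR), and it was called lower in clusters 1, 2 and 3. The last exon of 1 short coding form of Scrn1 is identical over 242 bases to part of the last exon of Wipf3. Whether strand was used in counting is not given in the sources used here, so UMIs from that stretch cannot be told apart between the genes. Over the 7 clusters the log2 fold changes of Wipf3 lay between -0.91 and -0.32, beside -1.94 to -1.30 for Scrn1, and the difference was not tested. Prcc matched no other transcript, at 90% identity over 50 bases or more. The full-length form of Scrn1 shared a stretch of at most 74 bases with 750 genes, and 1 noncoding form of Adamtsl4 a stretch of at most 125 bases with 566 genes, while the coding forms of Adamtsl4 shared none.

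The genes most like each member were sought among 8903 genes with a mean of at least 10 CPM over sample and cluster values, by Pearson's r of log2(CPM + 1). Over the 28 wildtype values, Prcc was most like Gabpb1 (0.90), Zfp938 (0.89) and Tpd52l2 (0.89), and Adamtsl4 was most like Fam133b (0.81), Strn (0.78) and Agpat3 (0.78). Scrn1 was most like Stox2 (0.98), Rbl1 (0.97) and Xiap (0.97). None of these 9 genes was called over all nuclei. Over all 56 values, which add the genotype difference, Prcc was most like Xpo7 (0.97), Gm17167 (0.94) and Sucla2 (0.91), and Scrn1 most like Hjurp (0.93), Gm17167 (0.91) and Terf1 (0.87), all of them called lower. Adamtsl4 was most like Spats2 (0.92), Gm28438 (0.89) and Dnajc22 (0.89), all called higher. These values come from sums that share samples and depth.

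The genes listed beside the members for their function are read against the 5.26% of all genes called over all nuclei. Of 11 partners listed for Prcc, the checkpoint gene Mad2l2, components of the splicing complex around Prpf19 and the Tfe3 family, all were tested over all nuclei and 0 were called by edgeR, with 1 at an unadjusted p under 0.05. Their median log2 fold change was 0.09, against 0.00 over all genes. Mad2l2 was at 37.1 ± 2.15 CPM in wildtype and 39.1 ± 1.64 CPM in knockout samples (SD, n = 4; adjusted p = 0.376), and the splicing factor gene Plrg1 at 11.6 ± 1.09 and 10.7 ± 1.41 CPM (0.745). In cluster 2, where 9.11% of all tested genes were called, 2 of 10 tested partners were called, Mad2l2 (0.34) and Crnkl1 (0.52), both higher.

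Of 29 genes listed for the ADAMTS family and microfibrils, 23 were tested over all nuclei, 4 were called higher and 1 lower, where 1.67% of all genes were called higher and 3.58% lower. The median of the 23 was 0.25. Adamts17, a protease gene of this family, went from 55.2 ± 7.89 to 98.2 ± 7.54 CPM (SD, n = 4; log2 fold change 0.84 ± 0.11 SE, adjusted p = 0.00321 by edgeR) and was called higher in 5 clusters. Adamts9 was higher by 1.06 ± 0.25 (0.0375), Adamts1 by 0.44 ± 0.11 (0.0475) and Adamts18 by 0.25 ± 0.06 (0.0348), and the procollagen protease gene Adamts2 was lower, at -0.58 ± 0.12 (0.0224). The groups did not overlap for these genes except for Adamts9, for which 4 of 4 knockout samples lay above the wildtype mean. Adamts18 was called higher in clusters 1 (0.54) and 2 (0.75) and called lower in cluster 4 (-0.45). Adamts3 was called in clusters 1 (0.35) and 2 (0.93), and Adamtsl1 in clusters 2 (-0.53) and 3 (-0.73). Adamts6 was called lower in cluster 1 (-0.65), and Fbn2, the second fibrillin gene of the list, in cluster 2 (-0.25). Of 13 alternatives, the call of Adamts17 over all nuclei was lost in 0, that of Adamts2 in 4, those of Adamts9 and Adamts18 in 6 and that of Adamts1 in 9. Adamtsl2, a close relative of Adamtsl4, was at 0.510 ± 0.207 and 0.332 ± 0.117 CPM, too low to be tested. Fbn1, the other fibrillin gene, was at 24.7 ± 1.68 and 24.8 ± 1.92 CPM over all nuclei.

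Of 14 genes listed for secernins, endoplasmic reticulum contacts and exocytosis, all were tested over all nuclei, 0 were called higher and 1 lower. Rims1, which encodes a presynaptic active zone protein, went from 374 ± 17.8 to 291 ± 27.6 CPM (SD, n = 4; log2 fold change -0.35 ± 0.08 SE, adjusted p = 0.0318 by edgeR, groups without overlap) and was called lower in clusters 1, 2 and 3. This call over all nuclei was lost in 5 of 13 alternatives. The synaptic fusion gene Snap25 was called higher in cluster 1 (0.27) and called lower in cluster 3 (-0.33). Cplx2, the gene of a complexin that regulates synaptic vesicle fusion, was called higher in cluster 2 (0.39). Scrn2 was at 4.32 ± 0.574 and 4.69 ± 0.240 CPM (adjusted p = 0.598), and Scrn3 at 5.61 ± 0.294 and 4.90 ± 0.302 CPM (0.301). The median log2 fold change of the list was -0.06 against 0.00 over all genes. All 3 lists were written with earlier results of these data known.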

How the data were processed

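The authors deposited, for each of 8 samples, UMI counts per gene and nucleus (whole numbers, not normalised, per the file headers) with tables of nuclei and genes. The authors' tables of nuclei, per the file headers, also hold a cluster number, a cell cycle angle in radians (another kind of value), doublet scores and the mitochondrial ratio of each nucleus, all used as deposited. The hybrid doublet score reaches at most 0.5, so no doublet caller was run, and every deposited nucleus was kept. Bustools, kallisto and mm10 are named per the submitters' processing notes, without versions, and the filters on nuclei and the use of strand are not given in the sources used here. Only 2.49% of gene starts in the deposited table equal those of GENCODE M21, so positions were taken from M21 (GRCm38) by gene ID, and the deposited table served only for gene order and distances.

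Counts of all nuclei of a sample, and of its nuclei in a cluster, were added up and tested with edgeR 4.0.16 in R 4.3.3 (TMM, filterByExpr, glmQLFit and glmQLFTest, genotype only). Benjamini-Hochberg adjustment covered every gene of a fit, with a threshold of 0.05. The difference between clusters was tested on 56 sums with terms for sample, cluster and genotype by cluster. Levels are CPM of the library or of the sample's cluster, without TMM factors. The depth of 20446698 to 34083796 UMIs per sample limits genes of few UMIs. 1 gene without a symbol stayed out (at most 7.33e-05% of UMIs). On simulated counts, 200 genes, taken only from those with enough counts, were shifted by 1 on the log2 scale. The fit recovered 95% of them over all nuclei (13932 genes), 82% to 93.5% in clusters and 81.5% by genotype and cluster (12958 genes). In the last of these the shift was in cluster 1 alone. The simulation gave every gene the same fixed spread and no sample effect shared between clusters. These shares are therefore not the power of the real data, nor that for smaller differences between clusters.

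Replicate numbers come from the titles. Same-numbered samples deviated from their group means together, with correlations across genes of 0.398, 0.185, 0.192 and 0.179 for numbers 1 to 4, each over 0.1. The numbers were therefore used as a possible pairing, in ratios of same-numbered samples and in the replicate block. The main fits and their counts of called genes leave this pairing out. Pairs of different numbers gave -0.356 to 0.287, and 3 of these 12 were also over 0.1, wildtype 3 with knockout 4 being the highest. The block is given beside a result only where it changes the call. No 2 samples agreed within sampling noise (chi-square per degree of freedom 11.0 to 29.4). All 8 samples carry 1 library date, so no batch could be compared. Alternatives were DESeq2 size factors, no filter, the replicate block, Xist as a covariate, leaving out each sample, and DESeq2 1.42.0. Copies were searched with blastn 2.17.0 in the M21 transcripts.

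The members and the lists were chosen with earlier results of these data known. Besides the members, the text names the 3 genes most like each by correlation, the called genes among the 20 nearest (at most 5 a member), called list members, and fixed paralogs and partners. A cluster was named from 3 or more markers of 1 class that reach 10 CPM and exceed the other clusters' median by 1.5 times. The summed level of 1 of the 5 marker lists that separated the genotypes is not reported here.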

Additional observations from a re-analysis of the deposited data

Results flagged for a closer look

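Groups of 4 samples were examined for a single sample far from the other 3 (Dixon's ratio above its 95% critical value). Chance flags about 1 in 20 groups, and 3 of 48 groups were picked out. Over all nuclei, the Adamtsl4 level of wildtype replicate 4 was 9.96 CPM, above 8.52 to 8.62 in the other wildtype samples. In cluster 2, the Adamtsl4 level of knockout replicate 3 was 30.3 CPM, above 22.2 to 23.2 CPM in the other knockout samples. In cluster 6, the Scrn1 level of knockout replicate 2 was 9.58 CPM, below 20.7 to 22.7 CPM.

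The size of the Prcc change differed between clusters by the genotype by cluster test at an adjusted p of 0.0498, and in cluster 4 the log2 change of Prcc lay 0.22 above the mean of the other clusters. The first result was under 0.05 in 1 of 12 alternatives and the second in 5 of 12.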

How the results depend on the processing

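Of 312 values of the 3 genes over the alternatives (8 fits, 13 alternatives each), 309 kept direction and call, 0 reversed and 3 lost the call, all of them Adamtsl4 in cluster 6. With the replicate number as a block, the count of genes called was 1344 in place of 732 over all nuclei, 652 in place of 400 in cluster 3, 253 in place of 82 in cluster 6 and 255 in place of 109 in cluster 7, and the Prcc difference between clusters had an adjusted p of 0.133. The block ended no call of a member within a fit. The same Prcc difference had an adjusted p of 0.0772 with DESeq2 size factors, 0.0739 without a filter on low counts, 0.0306 with Xist as a covariate, and 0.0575 to 0.333 without 1 sample. The DESeq2 Wald test called 1215 genes over all nuclei. Leaving out 1 sample gave 263 to 994 called genes over all nuclei, the lowest without knockout replicates 3 (263) and 2 (286) and wildtype replicate 4 (362). It gave 335 to 647 in cluster 1 (lowest without knockout replicates 2 and 3), 192 to 438 in cluster 3 (wildtype 1 and 4, knockout 2 and 3), 315 to 539 in cluster 4 (wildtype 1), 101 to 189 in cluster 5 (wildtype 1 and 4, knockout 2), 51 to 148 in cluster 6 (lowest without knockout 2 and 3, highest without knockout 1), 63 to 142 in cluster 7 (wildtype 4, knockout 2) and 686 to 1171 genes whose change differs between clusters, in place of 1179 (wildtype 1 and 4). Scrn1 and Adamtsl4 stayed above 0.05 in all 12 alternatives of the test between clusters. The counts of UMIs limit Adamtsl4 most, and cluster 6 of the knockouts is the thinnest. Why counts of calls move with single samples was not tested.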
